A study of Mus musculus with 6 samples.

Results

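Crystallins are the proteins that make the lens of the eye dense and clear, and several of them are also made outside the lens, in retina, glia and muscle. The 10 genes described here are Cryaa, Cryab, Cryba1, Cryba2, Cryba4, Crybb1, Crybb2, Crybb3, Crygs and Crygn, found by gene symbol among the 24346 rows of each library. They were chosen by name with their FPKM levels in these libraries and the difference between the groups already known, so that difference is described for them and not tested. RNA sequencing covered 2 groups of 3 libraries, each labelled as a numbered mouse brain of embryonic day 17.5. The DKO group is labelled miR-124a-1/2 DKO, a double knockout of 2 of the loci that make the neuronal microRNA miR-124a. The control group is labelled miR-124a-1+/-, so it is heterozygous at a locus that the DKO group lacks, and no wild-type mice are analysed here. The labels do not say how the alleles were made, whether brains shared a litter, or what the letters CKO in the headers of the DKO files mean.

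The markers went against the tissue label, since in all 6 libraries those of retina were abundant and those of forebrain near the floor. Summed FPKM (fragments counted for each kilobase of a transcript, relative to library size) over 9 photoreceptor markers was 13032 to 14164 in the DKO libraries and 13650 to 14767 in the control libraries. Over 5 forebrain markers it was 3.29 to 3.48 in the DKO libraries and 3.09 to 3.85 in the control libraries, with Emx1 listed at 0 in all 6. Over 4 markers of dividing cells it was 0.887 to 1.25 in the DKO libraries and 0.729 to 1.19 in the control libraries. The FPKM of a library summed to 402832 to 436299, and read totals are unknown here. Relative depth, read from the steps between low values with DKO replicate 1 set to 1, was 1.24 and 1.13 for DKO replicates 2 and 3, and 0.956, 1.05 and 1.02 for control replicates 1, 2 and 3.

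The alpha crystallins, Cryaa and Cryab, are small heat shock proteins that hold unfolding proteins in solution. Cryaa is largely a lens gene, whereas Cryab is also made in glia, heart and skeletal muscle. The beta and gamma crystallins share another fold, built from Greek key motifs, and pack the fibre cells of the lens. Among them the acidic beta genes are Cryba1, Cryba2 and Cryba4, the basic beta genes are Crybb1, Crybb2 and Crybb3, and Crygs encodes gamma-S. Crygn encodes gamma-N, a small relative found in lens and retina. In the lens, transcription factors of the large Maf family, with Pax6, Sox2 and Prox1, are known to drive crystallin genes.

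The start regions of a few of the 10 genes are shown as sequence only, and their part in the levels was not tested. RefSeq start regions on GRCm38.p6, from 250 bases before to 50 bases after the annotated start, were matched by symbol for 9 of the 10 genes, all but Cryab. The core letters of the Maf recognition element, TGCTGA on either strand, occurred in 8 of these 9 windows, all but that of Crybb2. The same letters occurred in 19.5% of all 32851 such windows. TATAAA on the sense strand, a spelling of the TATA box, occurred in 4 of the 9 windows (Cryba1, Cryba2, Crybb1 and Crygs), against 8.32% of all windows. In Cryba2 it began only 3 bases before the annotated start. The letters GAANNTTC, the core of a heat shock element, occurred in 0 of the 9, against 7.86% of all windows. In gamma-A to F, the lens gamma crystallins outside the selected set, the Maf letters occurred in 2 of 6 windows and TATAAA in 0 of 6, with GAANNTTC in 0 of 6. Other spellings of the TATA box were not counted, such as the tatata in the windows of Cryaa and gamma-A to F. A window without TATAAA may therefore still hold a TATA box. A match describes letters only and was not tested as a binding site. In the windows below, read 5′ to 3′, capitals mark TGCTGA on either strand and TATAAA on the sense strand. Cryaa is shown as the alpha crystallin with the widest range, Cryba4 and Crybb1 as neighbours that face away from each other across 3297 bases, and Crygs as a gene whose groups did not overlap.

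Cryaa, chr17:31677681-31677980, plus strand: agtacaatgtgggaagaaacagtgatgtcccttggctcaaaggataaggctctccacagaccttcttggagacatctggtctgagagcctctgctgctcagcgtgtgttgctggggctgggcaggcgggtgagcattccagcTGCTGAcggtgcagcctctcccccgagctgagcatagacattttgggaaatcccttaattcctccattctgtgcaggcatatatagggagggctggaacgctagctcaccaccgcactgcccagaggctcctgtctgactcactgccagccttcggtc
Cryba4, chr5:112252469-112252768, minus strand: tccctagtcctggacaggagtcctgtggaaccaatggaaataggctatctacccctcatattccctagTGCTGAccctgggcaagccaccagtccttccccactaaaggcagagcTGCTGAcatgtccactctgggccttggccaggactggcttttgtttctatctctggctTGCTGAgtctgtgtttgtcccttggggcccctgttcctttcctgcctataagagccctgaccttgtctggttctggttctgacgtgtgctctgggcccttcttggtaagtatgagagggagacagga
Crybb1, chr5:112255570-112255869, plus strand: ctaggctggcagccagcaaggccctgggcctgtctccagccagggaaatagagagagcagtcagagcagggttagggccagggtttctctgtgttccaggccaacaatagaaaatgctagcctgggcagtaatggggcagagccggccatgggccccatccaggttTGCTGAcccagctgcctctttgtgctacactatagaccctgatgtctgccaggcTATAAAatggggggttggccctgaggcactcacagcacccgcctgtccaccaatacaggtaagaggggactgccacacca
Crygs, chr16:22811361-22811660, minus strand: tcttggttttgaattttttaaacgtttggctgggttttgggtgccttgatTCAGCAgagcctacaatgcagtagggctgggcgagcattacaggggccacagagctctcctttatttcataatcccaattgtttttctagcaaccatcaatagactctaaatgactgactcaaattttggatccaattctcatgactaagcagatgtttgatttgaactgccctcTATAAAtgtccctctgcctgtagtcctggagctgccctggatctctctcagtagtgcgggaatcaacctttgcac

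The Maf letters began 108 bases before the RefSeq start in Cryaa and 84 bases before it in Crybb1. Cryba4 held 3 copies, which began 182, 135 and 77 bases before the start, and Crygs held 1, which began 200 bases before it. The TATA letters began 30 bases before the start in Crybb1 and 25 before it in Crygs. The gene spans given below are from GENCODE, and in Cryaa and Crygs the RefSeq start lies inside that span. The Maf letters of Cryaa and the TATA letters of Crygs therefore fall within the span.

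Among the selected crystallins, control replicate 2 was the highest library for 10 of 10 genes, and control replicate 3 was the next highest for 9 of 10. Control replicate 3 lay above the whole DKO range for 9 of 10 genes. Control replicate 1 lay within the DKO range for 6 of 10, above it for 2 and below it for 2. DKO replicate 2 was the lowest library for 6 of 10. The level of the control group was thus set by control replicate 2 and, to a smaller extent, control replicate 3, while control replicate 1 lay among or beside the DKO libraries. Bulk tissue cannot tell a difference in the number of cells that make a transcript from a difference in transcript per cell.

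**Figure D1:**
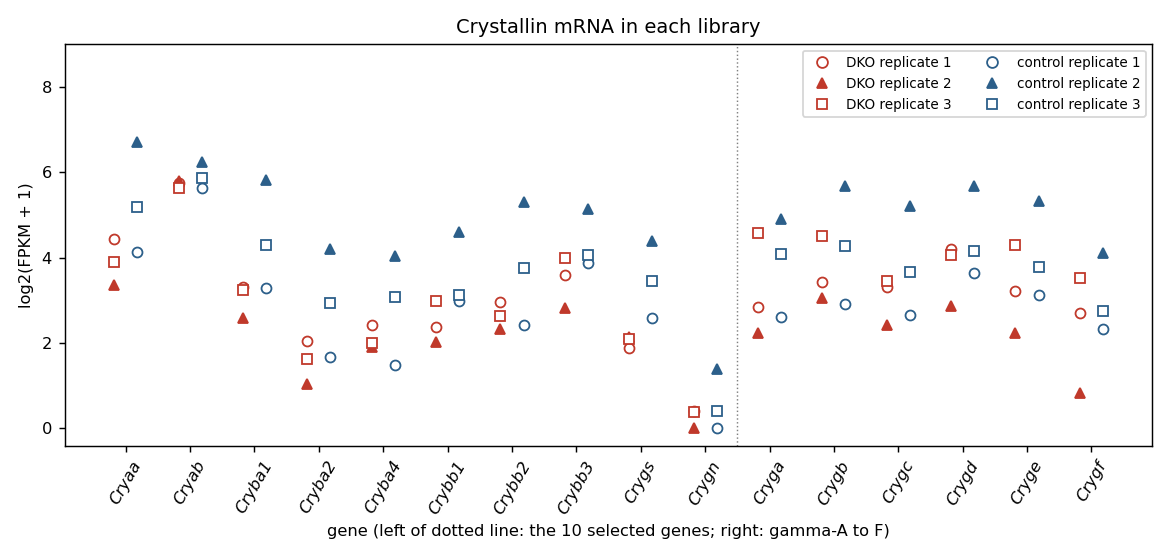
Level of each crystallin gene, as log2(FPKM + 1), in the 3 DKO libraries (red, left) and the 3 control libraries (blue, right); marker shapes give the replicate number and filled triangles are replicate 2. Control replicate 2 is the highest point for all 16 genes drawn.

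Cryaa (chromosome 17, 31677807 to 31681733 on GRCm38, plus strand) measured 20.5, 9.22 and 13.9 FPKM in DKO replicates 1 to 3, against 16.6, 102.8 and 35.1 FPKM in control replicates 1 to 3. It was high in control replicates 2 and 3, and the groups overlapped through control replicate 1. The means were 14.5 ± 5.65 FPKM in the DKO libraries and 51.5 ± 45.4 FPKM in the control libraries (SD, n = 3 each). Control replicate 2 stood at 6.18 times the median of the other 5 libraries.

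Cryab (chromosome 9, 50751325 to 50756636, plus strand) was the most abundant of the 10 in the DKO libraries and the most even. It measured 53.0, 54.2 and 48.7 FPKM in the DKO libraries, against 48.7, 74.4 and 56.9 FPKM in the control libraries. Only control replicate 2 stood clear of the rest, at 1.40 times the median of the other 5, and the groups overlapped. The first bases of Cryab overlap Hspb2, a small heat shock gene of the opposite strand (50751078 to 50752354). Hspb2 measured 0.382, 0.881 and 0.338 FPKM in the DKO libraries, against 0.800, 0.732 and 0.727 FPKM in the control libraries, so control replicate 2 was not raised there. The library kit keeps strand, but whether the authors' counting used it is not stated, so reads of the overlap cannot be told apart.

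All 3 acidic beta crystallins were at least 2 times as high in control replicate 2 as in any other library. Cryba1 (chromosome 11, 77718615 to 77725283, minus strand), known also as a gene of retinal astrocytes and pigment epithelium, measured 8.97, 4.98 and 8.43 FPKM in the DKO libraries, against 8.80, 55.8 and 18.5 FPKM in the control libraries. Cryba2 (chromosome 1, 74889934 to 74893143, minus strand) measured 3.12, 1.05 and 2.07 FPKM in the DKO libraries, against 2.18, 17.4 and 6.66 FPKM in the control libraries. Cryba4 (chromosome 5, 112246493 to 112252518, minus strand) measured 4.40, 2.76 and 3.03 FPKM in the DKO libraries, against 1.79, 15.4 and 7.46 FPKM in the control libraries. In all 3 genes control replicate 1 lay within or below the DKO range and control replicate 3 above it. Control replicate 2 was 6.34, 8.0 and 5.10 times the median of the other 5 libraries for Cryba1, Cryba2 and Cryba4. Cryba1 lies inside the span of Nufip2, a gene of the opposite strand that encodes an RNA-binding protein. Nufip2 had 15.8, 13.6 and 14.4 FPKM in the DKO libraries, against 13.3, 14.6 and 16.3 FPKM in the control libraries, and control replicate 2 was not the highest.

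The basic beta crystallins were less alike. Crybb1 (chromosome 5, 112255815 to 112269585, plus strand) measured 4.19, 3.06 and 6.88 FPKM in the DKO libraries, against 6.89, 23.1 and 7.66 FPKM in the control libraries. Its groups did not overlap, but the highest DKO library and the lowest control library nearly met. Crybb2 (chromosome 5, 113058258 to 113070117, minus strand), which is also found in retinal neurons, measured 6.84, 3.99 and 5.21 FPKM in the DKO libraries, against 4.37, 38.7 and 12.5 FPKM in the control libraries. Crybb3 (chromosome 5, 113075839 to 113081584, minus strand) measured 11.1, 6.05 and 14.8 FPKM in the DKO libraries, against 13.6, 34.2 and 15.8 FPKM in the control libraries. Crybb2 and Crybb3 are 5722 bases apart on the same strand, yet control replicate 2 was 7.43 times the median of the other 5 for Crybb2 and 2.52 times for Crybb3. Crybb1, in a separate pair at lower coordinates, had 3.36 times. Away from control replicate 2, Crybb1 and Crybb3 had the same 3 libraries near their upper end, DKO replicate 3 and control replicates 1 and 3.

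Crygs (chromosome 16, 22805203 to 22811577, minus strand) measured 2.66, 3.44 and 3.30 FPKM in the DKO libraries, against 5.01, 20.1 and 9.96 FPKM in the control libraries. All 3 control libraries lay above all 3 DKO libraries, with means of 3.13 ± 0.414 FPKM in the DKO libraries and 11.7 ± 7.70 FPKM in the control libraries (SD, n = 3 each). Crygn (chromosome 5, 24751003 to 24758008, minus strand) was near the detection limit, at 0.337, 0 and 0.298 FPKM in the DKO libraries, against 0, 1.61 and 0.332 FPKM in the control libraries. Of the 10 genes, the groups did not overlap for 2, Crybb1 and Crygs, where 13.9% of all tested rows did not overlap.

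**Figure D2:**
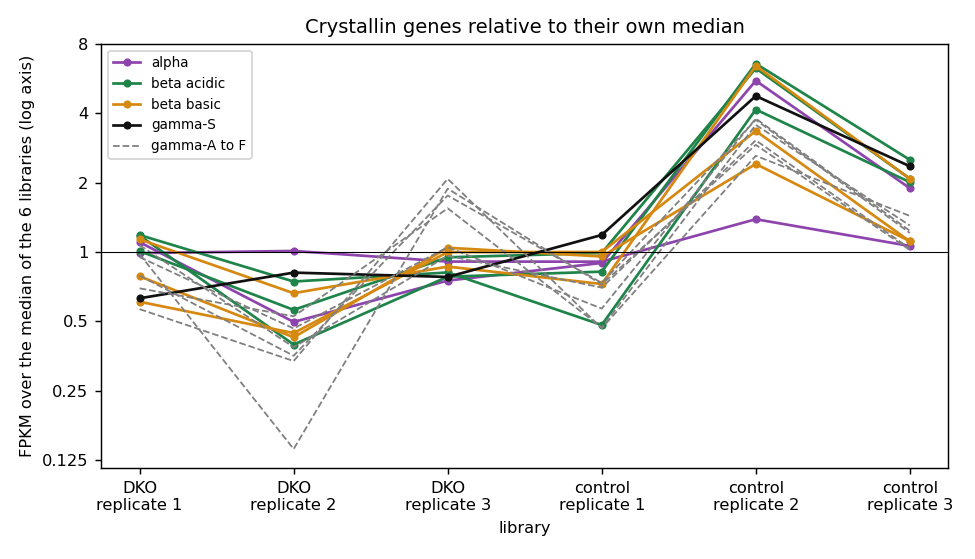
Each crystallin gene divided by its own median over the 6 libraries (log axis); solid lines are selected genes coloured by class, dashed grey lines are gamma-A to F, and Crygn is left out because its values reach 0. Every line peaks at control replicate 2, all solid lines have control replicate 3 second, and 4 of the 6 dashed lines have DKO replicate 3 second.

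The steps between FPKM values gave the number of fragments behind 7 of the 10 genes, as the smallest whole numbers that fit all 6 libraries within 0.02. Cryba1 rested on 32, 22 and 34 fragments in the DKO libraries, against 30, 208 and 67 in the control libraries. Cryba2 rested on 12, 5 and 9 fragments in the DKO libraries, against 8, 70 and 26 in the control libraries. The 95% exact Poisson interval of the 70 fragments in control replicate 2 was 54.6 to 88.4, and the highest interval among the DKO libraries ended at 21.0. For this low gene too the interval of control replicate 2 lay above those of the DKO libraries. The gene was chosen with its levels known, so this is a description. Crybb2 had 36, 26 and 31 fragments in the DKO libraries, against 22, 213 and 67 in the control libraries. Crygs had 10, 16 and 14 fragments in the DKO libraries, against 18, 79 and 38 in the control libraries. For Crygs, the intervals of control replicate 1 (10.7 to 28.4) and DKO replicate 1 (4.80 to 18.4) overlapped, so the gap between these libraries was not detectable at this depth. Crybb1 had 21, 19 and 39 fragments in the DKO libraries, against 33, 121 and 39 in the control libraries, and Cryba4 had 18, 14 and 14 in the DKO libraries, against 7, 66 and 31 in the control libraries. Crygn rested on 1, 0 and 1 fragment in the DKO libraries, against 0, 5 and 1 in the control libraries, and its intervals overlapped in all 6 libraries. Such intervals cover counting error only. The values of Cryaa, Cryab and Crybb3 gave no whole numbers within this tolerance.

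A limit of 1 FPKM on the mean of the 6 libraries left 9 of the 10 genes, all but Crygn, and all 9 also averaged more than this in the DKO libraries alone. The mean of each of the 9 was lower in the DKO libraries. On the log2(FPKM + 1) scale, which understates the change of low genes, the fold changes with SE were -1.44 ± 0.57 for Cryaa, -1.44 ± 0.38 for Crygs, -1.42 ± 0.55 for Cryba1 and -1.37 ± 0.57 for Cryba2. They were -1.19 ± 0.61 for Crybb2, -1.10 ± 0.42 for Crybb1, -0.89 ± 0.38 for Crybb3, -0.75 ± 0.55 for Cryba4 and -0.18 ± 0.14 for Cryab. The median was -1.19, against -0.0016 over all 13215 rows tested. In limma with Benjamini-Hochberg adjustment 0 of the 9 genes passed an adjusted p of 0.05, where 3 rows, or 0.0227%, passed in all. An unadjusted p under 0.05 was found for 6 of the 9, all lower, where 4.36% of all rows were lower at that level and 7.88% lay under it in either direction. Since the genes were chosen with this contrast known, these counts are a description.

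Without control replicate 2 the same differences shrank in all 9 genes. Cryaa had a log2 fold change of -0.76, Cryba1 -0.74, Cryba2 -0.74, Crybb1 -0.59, Crybb3 -0.50, Crybb2 -0.45 and Cryba4 -0.16. Cryab had -0.02, with means of 52.0 FPKM in the DKO libraries and 52.8 FPKM in the remaining 2 control libraries. Crygs kept the largest, -0.98 ± 0.25, with means of 3.13 FPKM in the DKO libraries and 7.49 FPKM in the remaining control libraries. The number of genes at an unadjusted p under 0.05 in limma was 1 without control replicate 2 and 3 without control replicate 3. It was 1 without DKO replicate 2, 3 without DKO replicate 3, 4 without DKO replicate 1 and 9 without control replicate 1. None of the 9 passed the adjusted threshold in any of these 6 limma fits. Summed over the 8 beta and gamma genes of the set, the level was 41.7, 25.3 and 44.0 FPKM in the DKO libraries, against 42.6, 206.4 and 78.9 FPKM in the control libraries. The log2 ratio of the group means of this sum was -1.56 with all libraries and -0.72 without control replicate 2.

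**Figure D3:**
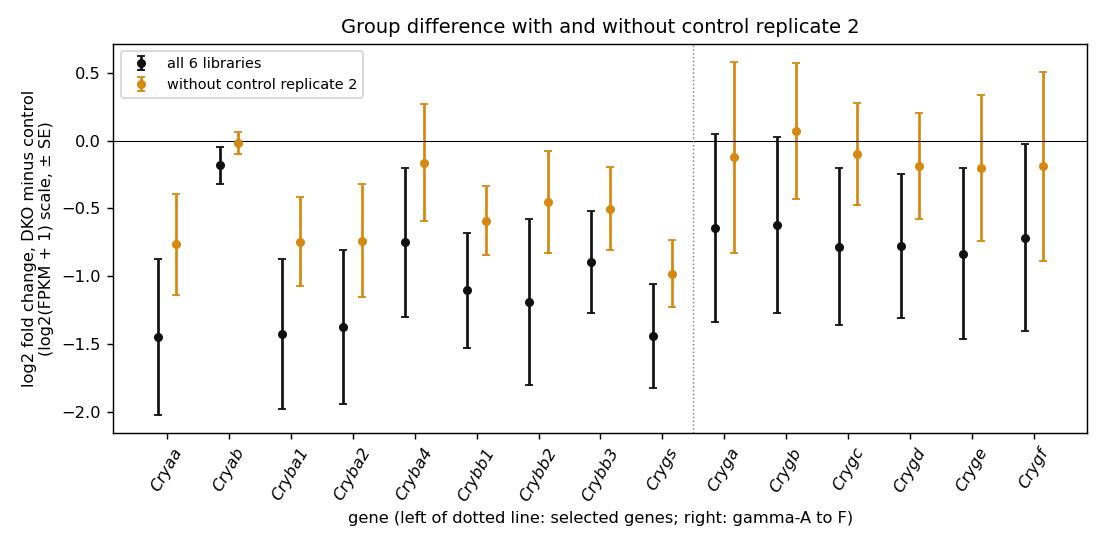
Log2 fold change (DKO minus control, on the log2(FPKM + 1) scale) with SE from limma, for the 9 tested genes of the set and for gamma-A to F, with all 6 libraries (black) and without control replicate 2 (orange). Without that library every value lies nearer to 0, and Crygb turns to 0.07.

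The selected genes varied together across libraries mainly through control replicates 2 and 3. Over the 36 pairs of the 9 tested genes, Pearson's r of log2(FPKM + 1) over the 6 libraries ranged from 0.679 to 0.997, with a median of 0.913. Spearman's rho ranged from 0.429 to 1, with a median of 0.771. With control replicates 2 and 3 left out, the 2 libraries farthest from the median, r ranged from -0.989 to 0.986 with a median of 0.354, and 12 of 36 pairs were below 0. The pooled r therefore rests on those libraries, and these values describe 6 libraries with no test. Crybb1 and Crybb3 stayed close without them (0.936), whereas the adjacent pair Cryba4 and Crybb1 had -0.437. Crybb2 and Crybb3, which are also adjacent, had 0.410.

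The 6 gamma crystallins gamma-A to gamma-F, the main products of the inner lens fibres and not part of the selected set, were also highest in control replicate 2 in 6 of 6 genes. Crygd (chromosome 1, 65061872 to 65063452, minus strand) measured 17.5, 6.31 and 15.7 FPKM in the DKO libraries, against 11.4, 49.9 and 16.9 FPKM in the control libraries. Crygc measured 8.93, 4.37 and 9.86 FPKM in the DKO libraries, against 5.34, 35.7 and 11.6 FPKM in the control libraries. In 4 of these genes DKO replicate 3 was the next highest library, which it was for 0 of the 10 selected genes. Cryga had 6.23, 3.71 and 22.9 FPKM in the DKO libraries, against 5.15, 28.9 and 15.8 FPKM in the control libraries, so DKO replicate 3 came close to control replicate 2. Crygb, Cryge and Crygf had 21.7, 18.5 and 10.5 FPKM in DKO replicate 3, which was 2.23, 2.23 and 1.92 times the higher of the other DKO libraries. In limma over all rows 0 of the 6 passed with Benjamini-Hochberg adjustment, 0 had an unadjusted p under 0.05, and all 6 had a log2 fold change below 0 (-0.83 for Cryge to -0.62 for Crygb, adjusted p 0.775 to 0.866). Without control replicate 2 these were -0.20 for Cryge, -0.19 for Crygf, -0.19 for Crygd, -0.12 for Cryga, -0.10 for Crygc and 0.07 for Crygb. Without DKO replicate 2 Crygf had 0.05 and the other 5 stayed below 0. These genes are similar in sequence, and 19.7% to 48.3% of the 50-base words of their GENCODE M21 transcripts occur in another gene as well, so the split of reads among them is uncertain. None of the 50-base words of the 10 selected genes is shared with another gene.

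The balance of gamma-A to F against the beta genes differed between libraries. The intervals below cover counting error only, and they are no test because these genes were chosen with earlier results known. Summing over the gamma group avoids the split of reads among its members. Of the fragments in gamma-A to F and in the 5 beta genes with whole fragments, gamma-A to F held 59.9%, 54.5% and 73.6% in DKO replicates 1 to 3, against 55.0%, 51.8% and 53.1% in control replicates 1 to 3. The 95% exact Clopper-Pearson interval for DKO replicate 3 was 69.4% to 77.5% (354 and 127 fragments), and the highest upper bound among the other 5 libraries was 65.6%. Control replicate 2 rested on the most fragments, 729 and 678, and had an interval of 49.2% to 54.5%. DKO replicate 3 was thus rich in gamma transcripts relative to beta, while control replicate 2 was high in both.

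**Figure D4:**
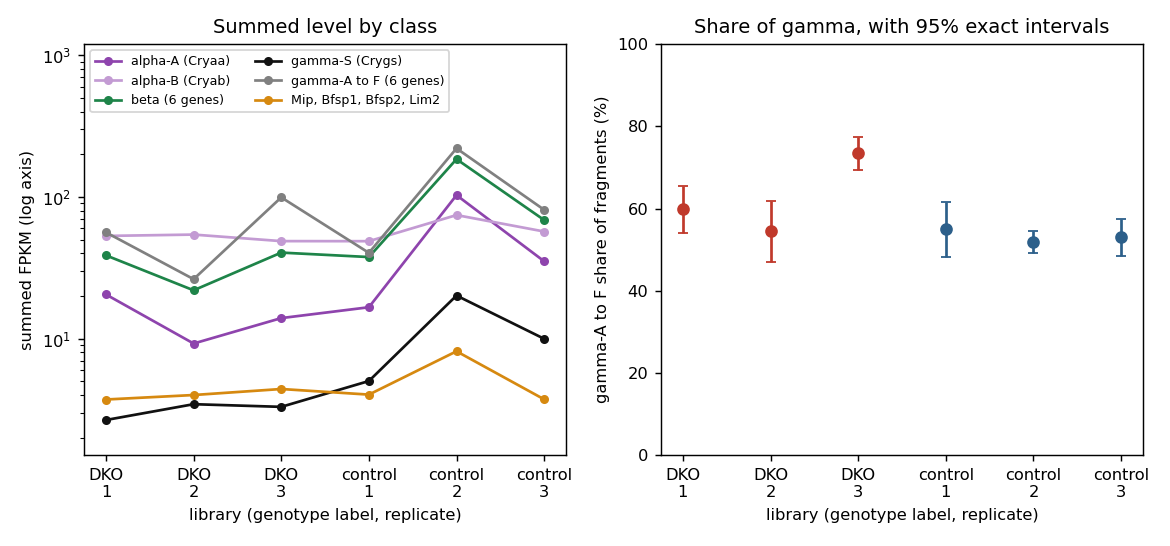
Left, FPKM summed by crystallin class and over 4 lens fibre genes in each library (log axis); right, the share of gamma-A to F among gamma-A to F and beta fragments, with 95% exact binomial intervals, DKO in red and control in blue. DKO replicate 3 is the library whose share, 73.6%, lies above the intervals of all others.

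Of the genes that carry a crystallin name but are enzymes, binding proteins or large non-lens relatives, those with a mean of at least 1 FPKM did not follow. Crym, which encodes a thyroid hormone binding protein, measured 162.7, 150.9 and 172.8 FPKM in the DKO libraries, against 166.6, 163.0 and 189.1 FPKM in the control libraries. Its log2 fold change was -0.09 (limma, Benjamini-Hochberg adjusted p = 0.794). Of the 7 genes of this kind on the list, 5 were tested and 0 passed, with 0 at an unadjusted p under 0.05 in limma. In control replicate 2 they lay at 0.827 to 2.37 times the median of the other 5 libraries, with a median of 0.914.

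The 14 genes of the lens fibre list differed widely in level, and 5 of them averaged at least 1 FPKM. Tdrd7, an RNA granule protein that is also made outside the lens, measured 120.6 to 126.2 FPKM in the DKO libraries and 119.8 to 125.1 FPKM in the control libraries. The defining genes of the list were low. Mip, the lens water channel, measured 0.204, 0.605 and 0.361 FPKM in the DKO libraries, against 0.642, 0.977 and 0.939 FPKM in the control libraries. Bfsp1 and Bfsp2, the beaded filament proteins, had 0.492 to 1.09 and 2.42 to 2.90 FPKM in the DKO libraries, against 0.780 to 1.34 and 2.00 to 4.08 FPKM in the control libraries, with control replicate 2 the highest for both. Lim2, a fibre membrane protein, was listed at 0, 0 and 0.535 FPKM in the DKO libraries, against 0.422, 1.74 and 0 FPKM in the control libraries. The sum of these 4 genes was 3.71, 3.99 and 4.40 FPKM in the DKO libraries, against 4.02, 8.13 and 3.72 FPKM in the control libraries. Control replicate 2 was the highest library for 7 of the 14 genes on the lens fibre list. Over the 9 genes of the list whose ratio could be formed, it lay at 0.777 to 5.41 times the median of the other 5 libraries, with a median of 1.62. Dnase2b was listed at 0 in all 6. Of the 5 genes of the list that were tested in limma 0 passed, and 0 had an unadjusted p under 0.05. The 2 of smallest p were Lenep (log2 fold change 0.22) and Hsf4 (0.15). Grifin, a lens galectin, was low but highest in control replicates 2 and 3, and was picked for that. Grifin measured 0.405, 0 and 0.358 FPKM in the DKO libraries, against 0, 1.94 and 1.20 FPKM in the control libraries. The part of lens tissue in the crystallin levels was not tested.

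Among markers of other cell types in and around the eye, 4 lists had sums that did not overlap between the groups, those of retinal ganglion cells, astrocytes and oligodendrocytes, ciliary body and iris, and Müller glia. Of all tested single rows, 13.9% did not overlap. The gaps for ciliary body and iris and for Müller glia each came from a single gene, given below. Over 7 retinal ganglion cell genes the sum was 642.6 to 666.5 FPKM in the DKO libraries and 703.4 to 763.7 FPKM in the control libraries, highest in control replicate 2, where single genes reached 1.30 times the median of the other 5 libraries. In limma 0 of these 7 passed with Benjamini-Hochberg adjustment. In the same fit 3 had an unadjusted p under 0.05, all lower, where 4.36% of all rows were lower at that level. Sncg and Rbpms overlapped between the groups. The part of these cells in the crystallin difference was not tested. Over 6 genes of ciliary body and iris the sum was 110.5 to 117.7 FPKM in the DKO libraries and 103.2 to 105.3 FPKM in the control libraries. Most of this was Mab21l1, and the other 5 genes summed to 5.30 to 6.41 FPKM in the DKO libraries and 5.66 to 6.30 FPKM in the control libraries, which overlap. Otx1 of this list, picked for its pattern, measured 0.101, 0.0407 and 0.0890 FPKM in the DKO libraries, against 0.316, 0.433 and 0.198 FPKM in the control libraries. These values lie near the floor, and no other gene of the list had this pattern. Mab21l1 was higher in all DKO libraries, and the remaining genes of the list overlapped between the groups. Over 6 genes of astrocytes and oligodendrocytes the sum was 15.9 to 17.2 FPKM in the DKO libraries and 17.8 to 18.7 FPKM in the control libraries, lowest of the controls in control replicate 2. The sums of the pigment epithelium, cornea and stressed glia lists overlapped between the groups. Over 10 genes of pigment epithelium the sum was 12.7 to 16.5 FPKM in the DKO libraries and 9.04 to 16.4 FPKM in the control libraries, with control replicate 2 the lowest. Over 6 genes of cornea and conjunctiva it was 0.490 to 0.988 FPKM in the DKO libraries and 0.330 to 0.525 FPKM in the control libraries, and 3 of the 6 were listed at 0 throughout. Over 9 Müller glia genes, where Cryab is known to be made, it was 2368 to 2553 FPKM in the DKO libraries and 2157 to 2281 FPKM in the control libraries, and 1 of them, Dkk3, passed in limma (higher, log2 fold change 0.93, Benjamini-Hochberg adjusted p = 0.00274). The gap came from Dkk3, since the other 8 genes summed to 1952 to 2079 FPKM in the DKO libraries and 1929 to 2040 FPKM in the control libraries, which overlap. Over 6 genes of stressed glia it was 34.3 to 49.8 FPKM in the DKO libraries and 36.7 to 71.8 FPKM in the control libraries, with control replicate 2 at 36.7.

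The transcription factors known to drive crystallin genes did not single out control replicate 2, which lay at a median of 1.02 times the other 5 libraries over 15 regulators. Pax6 measured 102.3, 111.8 and 112.7 FPKM in the DKO libraries, against 92.5, 96.9 and 98.2 FPKM in the control libraries, a log2 fold change of 0.18 that did not pass (limma, Benjamini-Hochberg adjusted p = 0.467). Nrl, a rod factor of the Maf family, had a log2 fold change of -0.13 (adjusted p = 0.590 in limma with Benjamini-Hochberg adjustment). Maf measured 4.29, 5.02 and 3.69 FPKM in the DKO libraries, against 4.45, 5.10 and 4.11 FPKM in the control libraries. Prox1 measured 51.7 to 52.9 FPKM in the DKO libraries and 48.1 to 55.2 FPKM in the control libraries. Hsf4, the heat shock factor of the lens, measured 1.35 to 1.88 FPKM in the DKO libraries and 1.02 to 1.84 FPKM in the control libraries, and Foxe3 was listed at 0 in all 6. Of 13 regulators tested in limma 0 passed with adjustment, and 2 had an unadjusted p under 0.05, Pax6 higher and Nrl lower. In the same fit 7.88% of all rows lay under that level in either direction.

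Heat shock genes, both the small ones that share a family with the alpha crystallins and others outside that family, did not follow Cryaa either. Of 4 small heat shock genes tested in limma 0 passed and 0 had an unadjusted p under 0.05, and in control replicate 2 the 8 genes of this list lay at 0.798 to 1.18 times the median of the other 5 libraries. Hspb1 measured 3.04 to 4.77 FPKM in the DKO libraries and 3.47 to 3.95 FPKM in the control libraries, and Hspb11 33.0 to 35.8 FPKM in the DKO libraries and 32.5 to 34.6 FPKM in the control libraries. Of 13 other heat shock genes 0 passed in limma with adjustment and 1 had an unadjusted p under 0.05, the chaperone Hsph1 (log2 fold change 0.16). The share of all rows under that level was 7.88%. Bag3, a partner of the small heat shock proteins, had -0.29 and the inducible chaperone Hspa1a -0.18, and neither passed.

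The chromosome neighbours of the selected genes did not follow them. For 13 measured neighbours that are not crystallins, control replicate 2 was 0.670 to 1.21 times the median of the other 5 libraries. They include U2af1 beside Cryaa, Miat beside Cryba4, Tpst2 beside Crybb1 and Tbccd1 beside Crygs.

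**Figure D5:**
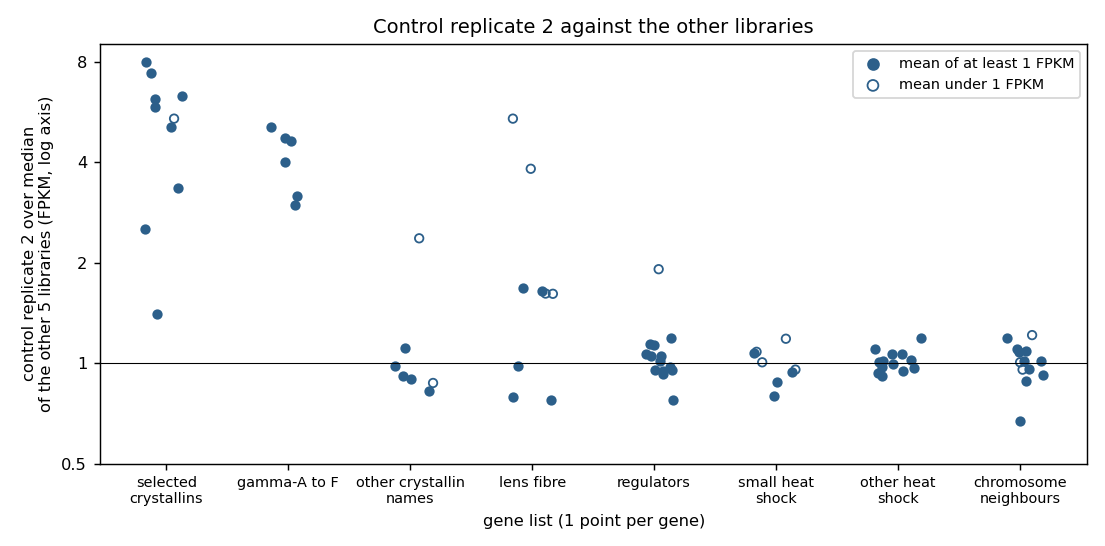
FPKM in control replicate 2 divided by the median of the other 5 libraries (log axis), 1 point per gene, by gene list; open points have a mean under 1 FPKM, and genes with a median or a control replicate 2 value of 0 are not drawn. The selected crystallins lie at 1.40 to 8.0 and gamma-A to F at 2.98 to 5.12, while the neighbours lie at 0.670 to 1.21 and the small heat shock genes at 0.798 to 1.18.

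Among all 13215 tested rows, 17, or 0.129%, were at least 2 times as high in control replicate 2 as in the next highest library. They comprised 8 of the 9 tested genes of the set (all but Cryab), 4 of the gamma-A to F genes (Crygb, Crygc, Crygd and Cryge) and 5 rows of short RNAs or unnamed gene models. The other libraries had 5 to 10 such rows each, with 0 crystallins among them.

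The rows whose pattern over the 6 libraries was most like the mean of the 9 tested genes, by Pearson's r of log2(FPKM + 1) among 1832 rows with an SD of at least 0.2, included 2 crystallins in the first 8. Kirrel2, a cell adhesion protein, had r = 0.973, Crygc 0.955, Ddo, a D-aspartate oxidase, 0.952, Pet100, a mitochondrial assembly factor, 0.928, and Crygd 0.926. Mthfsl had 0.921, and 1 unnamed gene model was among the 8. Kirrel2 measured 1.63, 1.39 and 1.56 FPKM in the DKO libraries, against 1.37, 2.46 and 1.82 FPKM in the control libraries, a narrower range than in the crystallins. For Cryab the first 4 rows were 1 unnamed gene model, Sdhaf4 (0.964), Irf7 (0.960) and Syt17 (0.941). These r values over 6 libraries are descriptions, taken as the highest of many.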

How the data were processed

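Per the labels' protocols, RNA came from a TRIzol extraction and a stranded mRNA library kit. Each file holds FPKM for 1 library, as deposited by the authors and per the file headers. The submitters' processing notes name TopHat2 2.1.1, Bowtie2, Cuffdiff 2.2.1 and mm10; the annotation and any scaling across libraries are not stated, and reads were not used here.

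The genes and lists were chosen with earlier results of these data known. With limma 3.58.1 (R 4.3.3, eBayes with a trend) log2(FPKM + 1) was fitted as DKO minus control for rows averaging 1 FPKM or more, with Benjamini-Hochberg adjustment over all rows and a threshold of 0.05. The fit and the fragment recovery were checked on simulated data. P-values measure the spread between 3 libraries per group. Named are the 10 genes, the defining genes of each list and its 2 of smallest p, chromosome neighbours, and rows most alike in pattern. Cryga, Crygb, Cryge, Crygf, Foxe3, Dnase2b, Emx1, Grifin, Tdrd7, Otx1, Mab21l1, Sncg, Rbpms and Dkk3 were added after their values were seen. A row that these rules would name is not reported here. Gene positions are from GENCODE M21 (GRCm38, the assembly of mm10) and start regions from RefSeq. Fragments were recovered from depth-scaled FPKM steps, and a common multiple of them would look the same. Versions were Python 3.11.15, SciPy 1.17.1, NumPy 2.4.6 and pandas 2.3.3.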

Additional observations from a re-analysis of the deposited data

How the results depend on the processing

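Each library was left out in turn, eBayes was run without a trend and in its robust form, and the replicate number was used as a block. Scaling by median of ratios or by quantiles, a filter at 5 FPKM or none, and pseudocounts of 0.5 and 0.1 were also tried. The 9 tested genes of the set kept a negative log2 fold change under all of them. The summed beta and gamma genes lay between -1.95 and -0.72 without single libraries. The number of rows past the threshold was 3, 1 without a trend in eBayes and 1 to 4 without single libraries, and leaving out control replicate 2 left 1 (Dkk3). For these changes the cause was not tested.

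The block on replicate number left 2 rows past the threshold and 0 of the 9 genes. Between libraries that share a number, deviations from the group mean had correlations of 0.072, 0.0063 and 0.101. Between libraries of different number the correlations ran from -0.119 to 0.0363. These values do not settle whether the numbers pair the libraries. The labels do not state a pairing, and the main fit used none. Of the 9 genes, 6 had an unadjusted p under 0.05 in limma, 3 with the block, 2 without a trend and 1 with robust eBayes.

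Differences of 5 genes changed sign. Without single libraries, log2 fold changes ranged from -1.30 to 0.0694 for Crygb (highest without control replicate 2), -1.30 to 0.0463 for Crygf (without DKO replicate 2), and -0.149 to 0.23 for Bfsp2 (0.23 without control replicate 2, 0.0226 and 0.00958 without DKO replicates 1 and 3). They ranged from -0.152 to 0.0267 for Maf (0.0267 without DKO replicate 3, 0.00721 without control replicate 2) and from -0.0676 to 0.0293 for Prox1 (0.00459 without DKO replicate 3, 0.0231 and 0.0293 without control replicates 1 and 2). Prox1 had 0.0125 with quantile normalization. Crygn, Lim2 and Grifin rest on under 10 fragments in every library.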
